A study of Bos taurus with 8 samples.

Results

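The miRNAs described here are the bovine miRNAs named mir-2281 to mir-2492, a block of registry numbers that holds miRNAs first reported from cattle. Members were the genes of biotype miRNA in the deposited count table whose name is bta-mir- followed by a number in that range. They were 190 genes with 186 distinct names, of the 1153 miRNA genes and 24616 genes in the table. The livers came from 8 Holstein Friesian cows slaughtered approximately 14 days postpartum, and small RNA of each cow was sequenced in a library of its own. The 4 cows in mild negative energy balance (MNEB, libraries 2M, 3M, 4M and 5M) ate grass silage ad libitum plus 8 kg concentrate daily, with 1 milking a day. The 4 cows in severe negative energy balance (SNEB, libraries 7S, 8S, 9S and 10S) ate a fixed amount of silage plus 4 kg concentrate daily, with 3 milkings a day. The groups are therefore a model in which feeding and milking differ together, and their parts cannot be told apart.

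A miRNA gene is transcribed into a hairpin, which is cut in the nucleus and then by Dicer into a short RNA that guides the silencing complex to partly complementary messages. Low registry numbers mostly belong to miRNAs shared by many vertebrates, such as let-7 and mir-122, while many hairpins of the block studied here have been described in cattle and their near relatives only, and most have no assigned function. The mir-2284 and mir-2285 families are large families of related copies spread over the bovine genome.

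Gene reads per library ranged from 21617227 to 33963761, so that the 3 reads that a count of 0 allows were worth 0.0883 to 0.139 RPM (reads per 1000000 gene reads). mir-122, the hepatocyte miRNA, took 60.9% to 91.9% of the miRNA reads of a library, and the neural mir-9 genes had no read in any library. The muscle miRNAs mir-1, mir-133a and mir-206 summed to 0.353 to 0.845 RPM in MNEB and 0.278 to 1.96 RPM in SNEB. Library 5M stood apart, with the highest mir-122 share, and its TMM scaling factor was 0.308 against 0.972 to 1.91 in the other libraries. The title of library 2M places it in MNEB and its treatment label in SNEB, and it was analysed as MNEB. Differences between libraries of a group can be technical as well as between cows, and in whole tissue fewer cells of a type and less RNA per cell cannot be told apart.

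Most of the members were rare or unseen in the counts of these livers. A read was counted in at least 1 library for 120 of the 190 members (63.2%), in every library for 33 (17.4%) and in none for 70 (36.8%). A further 46 members were seen in 1 to 3 libraries, 16 of them in 1 library only, and 41 in 4 to 7 libraries. The lower-numbered miRNAs (let-7 and numbers of up to 3 digits, 340 genes), which stand here for conserved miRNAs, were found in all 8 libraries for 206 genes (60.6%) and in none for 57 (16.8%). Other named miRNA genes (89) were found in all 8 libraries for 16 and in none for 56 (62.9%), and the 534 unnamed ones in all 8 for 7. In the share found in all 8 libraries, members were nearer to the other named genes than to the lower-numbered ones. In the share with no read, members were nearer to the lower-numbered genes. Genes are not independent replicates, and these shares carry no test. Only uniquely aligned reads were counted, so a gene with copies of the same sequence can have no read though it is expressed. How many of the genes with no read this concerned was not tested.

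The number of members with a read was 70, 75, 78 and 52 in 2M, 3M, 4M and 5M, and 73, 78, 79 and 78 in 7S, 8S, 9S and 10S. Library 5M had the fewest, and it had the most gene reads. However, mir-122 took 91.9% of its miRNA reads, against 60.9% to 76.5% in the other libraries. The reads left for other miRNAs were therefore fewest in 5M, and their part in its low number was not tested. The mean was 68.8 ± 11.6 in MNEB and 77 ± 2.71 in SNEB (SD, n = 4), and the groups overlapped. Without 5M, 41 members were seen in all of the remaining 7 libraries. Members with at least 10 reads numbered 13 in 5M and 20 to 31 in the other libraries.

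The level of the members was also low, with 2 genes as exceptions. Among genes seen in all 8 libraries, the median of the mean level was 0.711 RPM for members (quartiles 0.360 and 1.14) and 13.1 RPM for lower-numbered miRNAs (quartiles 2.25 and 93.2). A mean above 10 RPM, the level below which the study did not test miRNAs, was reached by 2 members against 114 lower-numbered genes, and a mean above 100 RPM by 1 member against 50. Another 10 members had means of 1 to 10 RPM, and 108 had a read but a mean under 1 RPM. Together the members made up 0.288% ± 0.203 of the miRNA reads (SD, n = 8), and the lower-numbered genes 91.9% ± 3.62.

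**Figure D1:**
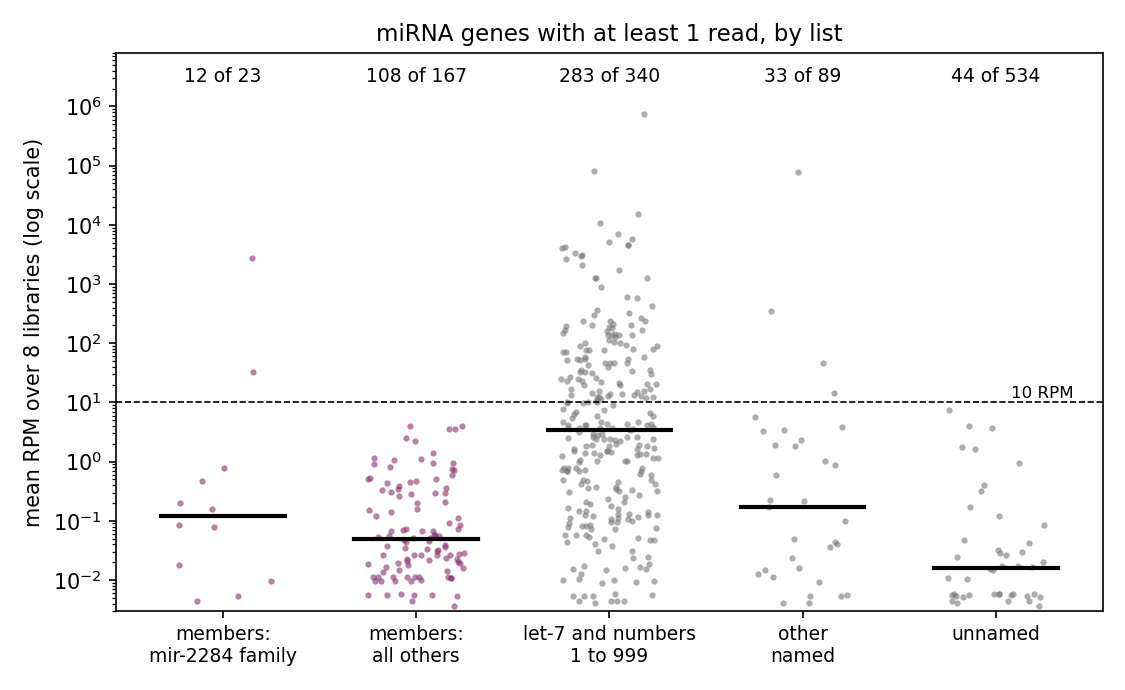
Mean level of each miRNA gene with at least 1 read, in RPM over 8 libraries on a log scale, by list, with 1 point per gene, the median as a bar and the number of genes with a read of all genes in the list above. Of the members, 2 genes of the mir-2284 family lie above the dashed line at 10 RPM and all others below it.

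The mir-2284 family carried nearly all reads of the block. It had 23 genes in the count table, of which 12 had a read, 4 were seen in all 8 libraries and 11 had none. It held 560167 reads, 98.6% of the reads of all members, and mir-2284x alone made up 90.1% to 98.3% of the member reads of a library. The other 21 genes of the family besides mir-2284x and mir-2284w shared 367 reads. The mir-2285 family had 5 genes, of which 4 had no read and mir-2285b had 4 reads. RefSeq lists 43 mir-2284 and 148 mir-2285 genes in its current cattle annotation, more than bear these names in the count table. Whether the 534 unnamed miRNA genes hold further copies was not tested. The authors kept uniquely aligned reads, so a read that aligns equally well to several copies would not be counted, and the levels of single copies in both families are uncertain. How many reads this concerned was not tested.

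mir-2284x ranked 16 among all miRNA genes by mean level. It lies within TIAM1, an activator of the small GTPase RAC. Its levels were 2194, 3587, 7048 and 210 RPM in 2M, 3M, 4M and 5M, and 2230, 2168, 2846 and 1908 RPM in 7S, 8S, 9S and 10S. The MNEB libraries held both the highest and the lowest value, and the SNEB libraries all fell between them. Counting error was small beside this, since the 95% Wilson interval of the value in 4M ran from 7014 to 7082 RPM. TIAM1 itself had almost no reads, 1 in all 8 libraries together.

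mir-2284w, within DOCK11, which activates CDC42 and RAC, ranked 83 with a mean of 32.7 RPM. Its levels were 30.8, 58.1, 64.6 and 3.74 RPM in MNEB and 31.5, 26.6, 19.97 and 26.2 RPM in SNEB, in the order of libraries given above. In RPM, as for mir-2284x, 4M was highest and 5M lowest. As a share of miRNA reads other than mir-122, 5M was still lowest for both, but mir-2284w was highest in 3M. Of 1000000 such reads, mir-2284w had 207 in 3M, 167 in 4M, 62.4 in 9S and 46.5 in 5M. mir-2284x had 18243 in 4M, 2618 in 5M and 7752 to 12805 in the other libraries. Group means were 39.3 ± 27.9 RPM in MNEB and 26.1 ± 4.74 RPM in SNEB for mir-2284w, and 3260 ± 2880 RPM and 2288 ± 397 RPM for mir-2284x (SD, n = 4).

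**Figure D2:**
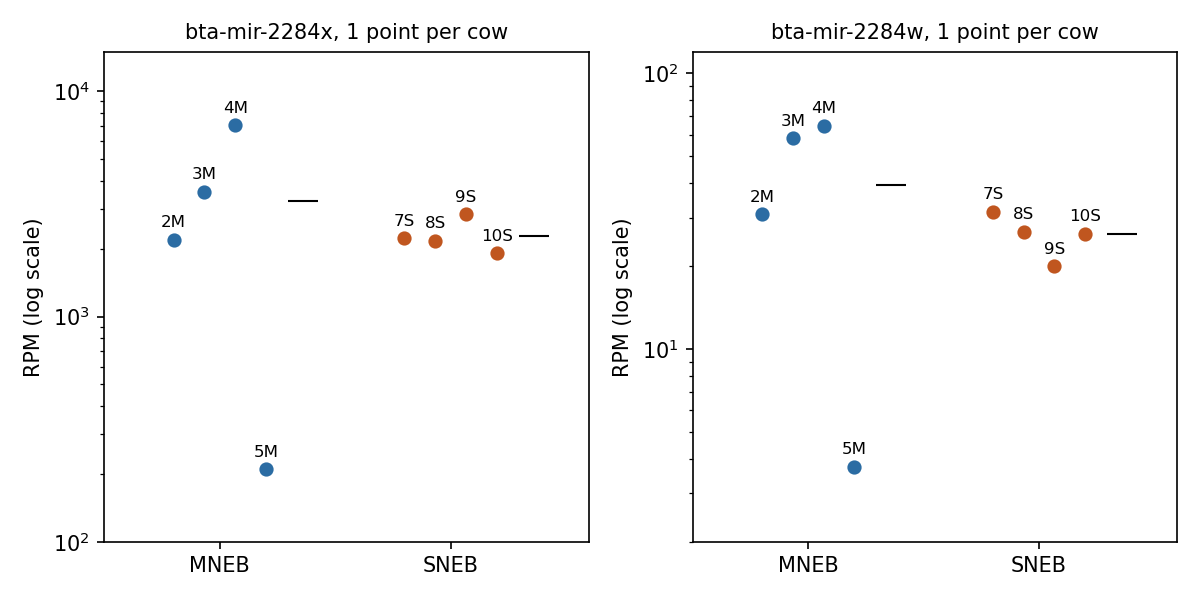
RPM on a log scale of mir-2284x and mir-2284w, the 2 members above 10 RPM, with 1 point per cow and the group mean as a short line. In RPM, 5M (210 and 3.74 RPM) lies far below the other 7 libraries in both, and 4M (7048 and 64.6 RPM) is highest.

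The SNEB and MNEB groups were compared with the quasi-likelihood test of edgeR, with the Benjamini-Hochberg adjustment over all miRNA genes tested. Among the 120 miRNA genes with a mean above 10 RPM, 0 of the 2 members passed an adjusted p of 0.05. The background was 0% of all 120 genes. The study reported fewer miRNAs above this level and called a miRNA outside the block as lower in SNEB. Its tested set and its outcome therefore differ from those given here. The log2 fold change (SNEB over MNEB) was -0.49 for mir-2284x and -0.62 for mir-2284w, with adjusted p of 0.723 and 0.627 in edgeR, while the median of all 120 genes was -0.20. In the fit over genes with a mean of at least 10 reads the value of mir-2284x was -0.26. On the mean of log2(RPM + 0.5) the difference was 0.29 for mir-2284x, the opposite sign, and -0.02 for mir-2284w, and the exact permutation p was 0.943 and 1.00. Without library 4M the value of mir-2284x was 0.080 in the edgeR fit above 10 RPM, and without 3M that of mir-2284w was -0.086.

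Among the 250 miRNA genes with a mean of at least 10 reads, 0 of 27 members passed by edgeR, and again 0% of all genes did. The fold changes of members lay on both sides of 0, with 14 above and 13 below and a median of 0.12, beside a median of 0.01 over all 250 genes (130 above and 120 below). The standard error of a member's log2 fold change had a median of 0.61 and ranged from 0.49 to 1.88. At an unadjusted p under 0.05 there was 1 member of 27, mir-2408, against a background of 5.2% of all genes tested. With 2M counted as SNEB there were 6 such members and 36 such genes of 250, and without 2M there were 4 such members and 27 such genes. edgeR's exact test, DESeq2 and limma voom also called 0 members.

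**Figure D3:**
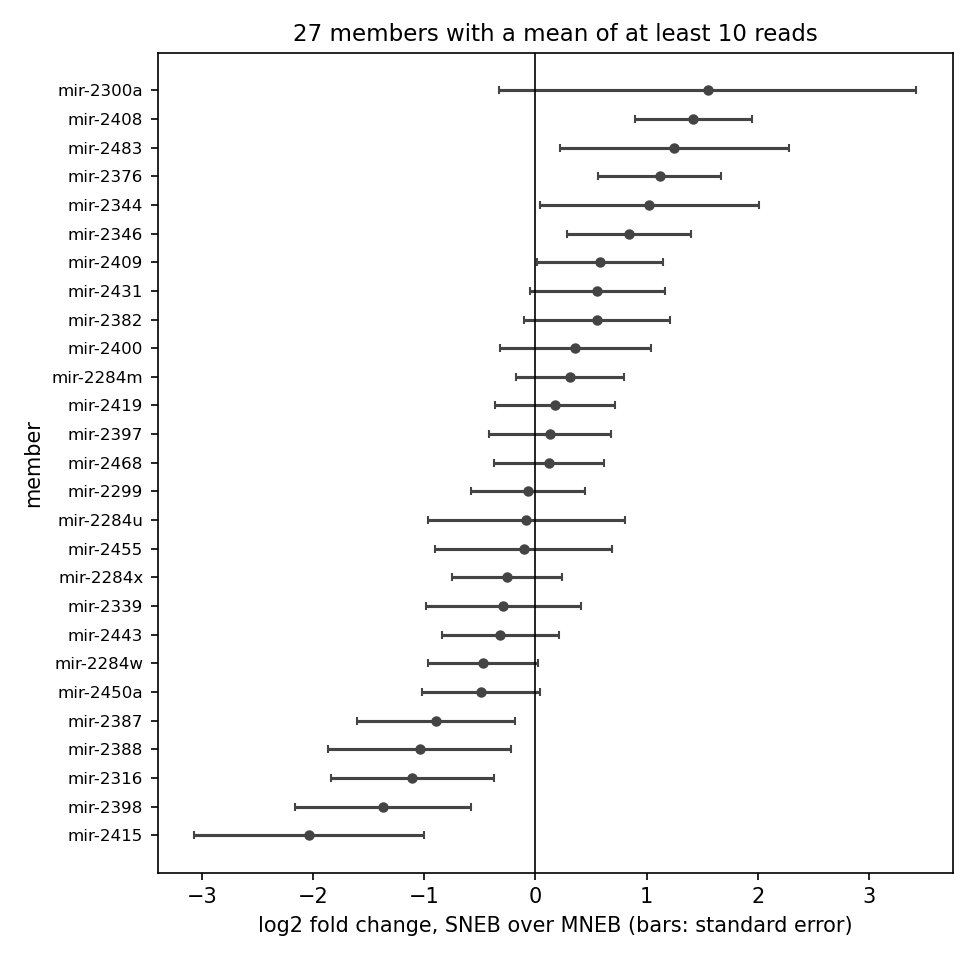
Log2 fold change of SNEB over MNEB for the 27 members with a mean of at least 10 reads, ordered by value, with bars for the standard error of edgeR's quasi-likelihood fit. Of the members, 14 lie above 0 and 13 below, and mir-2300a has the widest bar (1.88).

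Of the 27 members tested, mir-2408 was the one whose groups did not overlap. mir-2408 lies within PC, which encodes pyruvate carboxylase, the mitochondrial enzyme that makes oxaloacetate for gluconeogenesis. Its levels were 0.877, 1.85, 1.21 and 0.383 RPM in MNEB (20, 57, 28 and 13 reads), and 2.27, 3.75, 4.50 and 2.94 RPM in SNEB (49, 107, 111 and 66 reads). All 4 SNEB libraries lay above all 4 MNEB libraries, which held for 0.8% of all 250 genes tested, namely mir-2408 and 1 unnamed gene. The gap between groups was narrow, and the 95% Wilson interval of 3M, 1.43 to 2.40 RPM, overlapped that of 7S, 1.71 to 3.00 RPM. Below the test's minimum, mir-2446, named here after its values were seen, also had all SNEB libraries above all MNEB libraries, at 0 to 1 reads in MNEB and 2 to 4 reads in SNEB. It was 1 of 93 members with a read and a mean under 10 reads, where the same held for 1.3% of 230 miRNA genes.

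The group means of mir-2408 were 1.08 ± 0.617 RPM in MNEB and 3.36 ± 0.970 RPM in SNEB (SD, n = 4). The quasi-likelihood test of edgeR gave a log2 fold change of 1.42 with a standard error of 0.52 and an adjusted p of 0.704. A two-sided exact permutation test on log2(RPM + 0.5) gave a difference of 1.34 and p = 0.0286, the smallest value that 70 assignments allow. The adjusted p over all 250 genes was 1.00, but a single gene at the smallest permutation p could not pass this adjustment. That value therefore decides nothing, and the difference did not pass correction in edgeR. As a share of miRNA reads other than mir-122 the groups were also apart, at 3.14 to 6.62 reads in 1000000 in MNEB and 9.26 to 16.2 in SNEB. With library 2M counted as SNEB, as in its treatment label, the log2 fold change was 1.06 with an adjusted p of 0.471 in edgeR, and the unadjusted p was no longer under 0.05.

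Fragments of the PC message were counted in the same libraries, and all tests of PC were added after seeing the data. They had 0.921, 0.325, 1.52 and 7.66 RPM in 2M, 3M, 4M and 5M, and 6.25, 10.2, 9.12 and 7.43 RPM in 7S, 8S, 9S and 10S. The SNEB libraries lay above 3 of the MNEB libraries, and 5M, where mir-2408 was lowest in RPM, lay among the SNEB values. edgeR gave a log2 fold change of 1.71 with a standard error of 0.56 and an adjusted p of 0.179, in a fit over 2415 protein-coding genes in which 0.124% of genes passed. Its unadjusted p in edgeR was 0.0085, and 14.3% of these genes had one under 0.05. Among other hosts of named members, HTT, TAPBP, AP2A2 and PCM1 had enough fragments for this fit. Their log2 fold changes were -0.48, -0.22, -0.57 and -0.002, with adjusted p of 0.541 to 0.999 in edgeR. The members within them, mir-2450a, mir-2376, mir-2409 and mir-2398, had -0.49, 1.12, 0.58 and -1.37. The exact permutation test gave p = 0.0857 for PC. Leaving out libraries was likewise chosen for PC after seeing the data. Of the 8 such edgeR fits 1 passed, that without 5M, with a log2 fold change of 2.85 and an adjusted p of 0.00398. With 2M in SNEB the value was 1.27 with an adjusted p of 0.443. No strand setting of the counting is given in the sources used here, and the part of PC fragments in the mir-2408 counts was not tested.

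**Figure D4:**
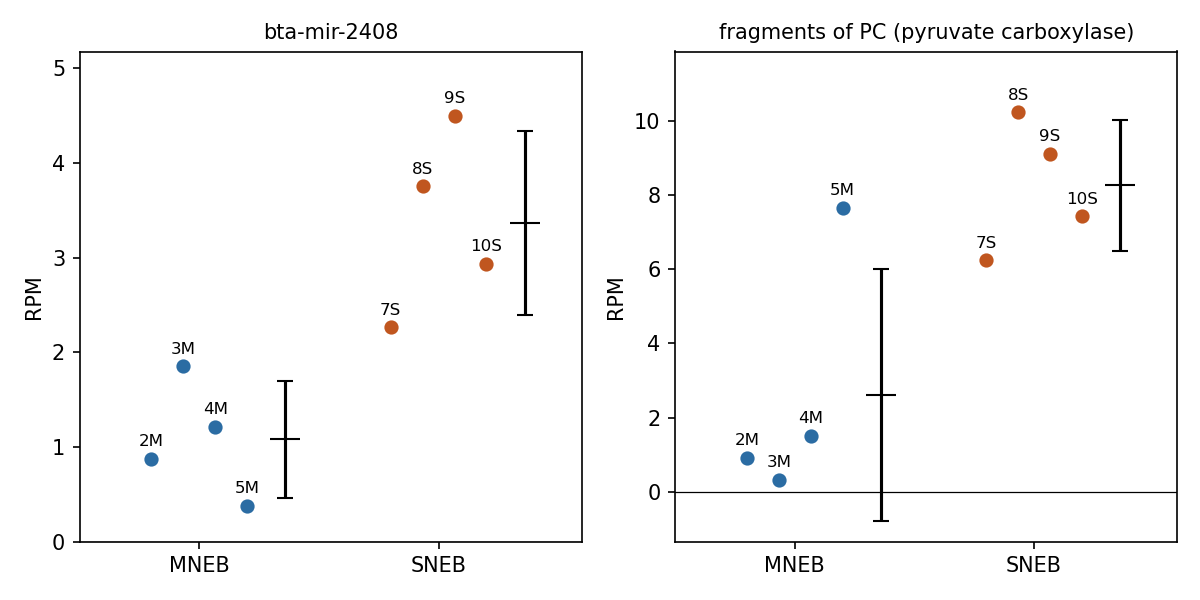
RPM of mir-2408 (left) and of fragments of PC, the gene it lies in (right), with 1 point per cow and the group mean ± SD beside the points. For mir-2408 the SNEB libraries (2.27 to 4.50 RPM) lie above all MNEB libraries (0.383 to 1.85 RPM), while for PC the MNEB library 5M (7.66 RPM) lies among the SNEB libraries.

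The other members with the smallest p above 0 were mir-2376, mir-2346, mir-2483 and mir-2344. mir-2376 lies within TAPBP, which encodes tapasin of the peptide loading complex, and had 0.658, 0.423, 0.694 and 0.0589 RPM in MNEB and 0.879, 0.946, 1.5 and 0.534 RPM in SNEB. Its groups overlapped through 10S, and edgeR gave a log2 fold change of 1.12 with an adjusted p of 0.704. mir-2346, within ASPSCR1, a regulator of GLUT4 trafficking, had 1.1, 0.683, 0.390 and 0.206 RPM in MNEB and 1.30, 1.37, 0.851 and 1.51 RPM in SNEB. The groups of mir-2346 overlapped through 2M and 9S, with a log2 fold change of 0.84 and an adjusted p of 0.792 in edgeR.

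mir-2483 lies within TENM1, a teneurin of cell adhesion, and mir-2344 within TBCD, a tubulin folding cofactor. mir-2483 had 1.58, 0.0325, 0.738 and 0 RPM in MNEB and 1.30, 0.175, 2.51 and 1.11 RPM in SNEB. mir-2344 had 0.965, 0.0650, 0.130 and 0.0883 RPM in MNEB and 1.71, 0.456, 0.0810 and 0.489 RPM in SNEB. High and low libraries were found in both groups for each of them, with log2 fold changes of 1.25 and 1.03 and adjusted p of 0.915 and 0.932 in edgeR. The value of mir-2344 was -0.12 without library 7S, 2.41 without 2M and 2.58 with 2M in SNEB, with adjusted p of 0.995, 0.422 and 0.248 in edgeR. That of mir-2483 was 2.68 without 2M, 2.79 with 2M in SNEB and 0.60 without 9S, with adjusted p of 0.359, 0.211 and 0.966 in edgeR.

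Below 0, the members with the smallest p were mir-2415, mir-2398, mir-2316, mir-2388 and mir-2387. mir-2415, near ST3GAL3 and KDM4A, had 0.132, 0.163, 1.04 and 1.44 RPM in MNEB and 0.231, 0.175, 0.567 and 0.445 RPM in SNEB, so that 4M and 5M were highest and 2M and 3M lowest. edgeR gave it a log2 fold change of -2.04 with a standard error of 1.03 and an adjusted p of 0.704. mir-2398, within PCM1, a component of centriolar satellites, had 0.263, 0.813, 1.61 and 0 RPM in MNEB and 0.139, 0.245, 0.324 and 0.133 RPM in SNEB. Here 4M and 3M were high and 5M had no read, and the log2 fold change was -1.37 with an adjusted p of 0.718 in edgeR.

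mir-2316 lies beside APBB1, an adaptor that binds the amyloid precursor protein, and SMPD1, acid sphingomyelinase. It had 1.67, 3.15, 7.33 and 5.71 RPM in MNEB and 2.22, 2.87, 5.96 and 2.85 RPM in SNEB, so that 4M, 9S and 5M were high. mir-2388, within the homeobox gene CUX1, had 0.526, 0.455, 0.651 and 1.38 RPM in MNEB and 0.370, 0.771, 0.851 and 1.02 RPM in SNEB. mir-2387, within GTF2IRD1, a transcription factor gene, had 0.570, 1.04, 1.17 and 1.21 RPM in MNEB and 1.02, 1.23, 0.405 and 0.801 RPM in SNEB. For mir-2388 and mir-2387 the highest MNEB library was 5M, although most members were low in that library.

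The log2 fold changes of mir-2316, mir-2388 and mir-2387 were -1.11, -1.04 and -0.89, with adjusted p of 0.792, 0.883 and 0.883 in edgeR. Their RPM means differed less, at 4.47 and 3.47 RPM for mir-2316, 0.754 and 0.754 RPM for mir-2388 and 0.997 and 0.863 RPM for mir-2387 in MNEB and SNEB. Those fits scale 5M by the factor of 0.308 given above. Without 5M the values were 0.091 for mir-2316, 0.65 for mir-2388, 0.14 for mir-2387 and 0.073 for mir-2415, all above 0.

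In RPM, mir-2443 had the steadiest level of the members above 1 RPM. It lies near let-7a-3, let-7b and mir-3596 in the RefSeq annotation. It had 3.90, 3.22, 4.90 and 2.97 RPM in MNEB and 3.56, 4.45, 4.66 and 4.14 RPM in SNEB. Library 5M was lowest here too, at 0.719 of the median of the other 7 libraries. As a share of miRNA reads other than mir-122 the order turned over, with 37.0 reads in 1000000 in 5M and 11.5 to 19.2 in the other libraries. Within groups, pooled over both, the variance of its counts was 3.32 times what counting error gives. The median of this ratio was 13.3 over the 27 tested members and 124 over 202 lower-numbered genes. mir-2299, within B3GLCT, a glucosyltransferase gene, had the lowest such ratio of the tested members (1.98) at a mean of 0.508 RPM, so that little beyond counting error was measurable for it. The ratio grows with the count, and it was 38104 for mir-2284x.

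mir-2300a was present in 3 libraries and nearly absent from the other 5. It overlaps FLT1, which encodes a receptor for vascular endothelial growth factor, and the neighbouring hairpin mir-2300b. It had 169, 0, 0 and 0 reads in 2M, 3M, 4M and 5M, and 284, 0, 2 and 181 reads in 7S, 8S, 9S and 10S, or 7.41 RPM in 2M, 13.1 RPM in 7S and 8.05 RPM in 10S. Both groups held libraries with and without it. A count of 0 in 3M, 4M, 5M and 8S allows at most 0.0883 to 0.130 RPM. Its log2 fold change of 1.55 had a standard error of 1.88 and an adjusted p of 0.978 in edgeR.

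The remaining members above 1 RPM were mir-2431, mir-2468, mir-2450a, mir-2419, mir-2397 and mir-2339. mir-2431, beside STAT6, the transcription factor of interleukin 4 signalling, had 2.46, 4.49, 3.04 and 0.736 RPM in MNEB and 1.48, 2.70, 9.36 and 4.32 RPM in SNEB. mir-2468, within SCRG1, had 2.02, 2.02, 5.38 and 0.501 RPM in MNEB and 1.90, 1.93, 4.29 and 1.96 RPM in SNEB. Both were lowest in 5M and second lowest in 7S, and 9S was their highest SNEB library.

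mir-2450a lies within HTT, the huntingtin gene, with mir-2450b, mir-2450c and mir-2450d close by, and ranged from 0.177 RPM in 5M to 3.04 RPM in 4M. mir-2397, within GLRX3, a glutaredoxin gene, had the same 2 libraries at its ends, with 0.206 and 3.04 RPM, and so had mir-2339, within ELAC2, which processes tRNA precursors, with 0.206 and 3.60 RPM. mir-2419 ranged from 0.0883 RPM in 5M to 1.82 RPM in 4M. The log2 fold changes of these 6 members lay between -0.49 and 0.56, with adjusted p of 0.978 to 0.999 in edgeR.

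The same libraries were high or low for many members. In RPM, 21 of the 27 tested members had their lowest value in 5M, 14 their highest in 4M and 6 their highest in 9S. Within MNEB 4M was highest for 18, and within SNEB 9S was highest for 19. The summed level of all members was 2261, 3678, 7172 and 233.5 RPM in 2M, 3M, 4M and 5M, and 2304, 2230, 2925 and 1977 RPM in 7S, 8S, 9S and 10S. Without mir-2284x the sums were 67.1, 90.9, 124 and 23.2 RPM in MNEB and 74.5, 61.5, 78.4 and 68.9 RPM in SNEB. In both sums the MNEB libraries spanned the SNEB libraries, with group means of 76.2 ± 42.3 and 70.8 ± 7.38 RPM without mir-2284x (SD, n = 4).

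In RPM, whose total includes mir-122, library 5M was low for most miRNAs. Its level over the median of the other 7 libraries had a median of 0.169 over the 27 members, 0.219 over 202 lower-numbered genes and 0.436 over 115 snoRNA genes. Fragments of 2414 protein-coding genes had a median of 1.30. The members above 1 were mir-2387, mir-2316, mir-2388 and mir-2415, at 1.19, 1.99, 2.13 and 6.24. With mir-122 left out of the total, the median in 5M was 0.526 over members and 0.732 over lower-numbered genes, and of the 27 members 13 were lowest and 5 highest in 5M. In 4M the median over members was 2.14, beside 1.57 for lower-numbered genes and 1.68 for protein-coding fragments, and in 9S it was 2.13 over 26 members with a nonzero median in the other libraries, beside 1.1 and 0.880. With mir-122 left out of the total, the median over members was 1.32 in 4M and 1.62 in 9S, beside 0.982 and 0.833 for lower-numbered genes, and 8 members were highest in 4M and 6 in 9S. Summed miRNA markers of stellate and smooth muscle cells ran from 2295 to 12786 RPM in MNEB and from 1805 to 2866 RPM in SNEB, and those of leukocytes from 23.6 to 904 and from 305 to 605 RPM. The part of cell makeup and of RNA quality in these differences was not tested.

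**Figure D5:**
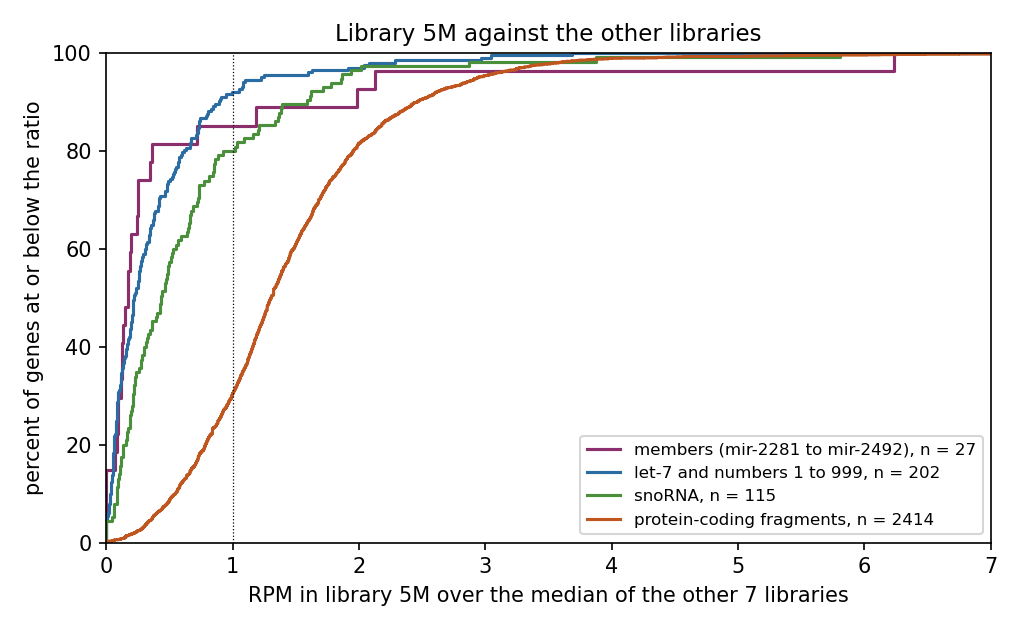
Percent of genes at or below a given ratio of the level in 5M to the median of the other 7 libraries (both in RPM), for 27 members, 202 lower-numbered miRNA genes, 115 snoRNA genes and fragments of 2414 protein-coding genes, all with a mean of at least 10 reads. The curve of the members (median 0.169) runs with that of the lower-numbered miRNAs (0.219), left of that of the protein-coding fragments (1.30), with 4 members to the right of 1.

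Most members lay within protein-coding genes in the RefSeq annotation of ARS-UCD2.0, which was used by name only. Of 186 members matched there, 146 (78.5%) overlapped a protein-coding gene, against 183 of 339 lower-numbered genes (54.0%). Among genes with a mean of at least 10 reads the counts were 22 of 27 members (81.5%) and 104 of 202 lower-numbered genes (51.5%), and among genes with no read 48 of 69 (69.6%) and 40 of 56 (71.4%). The shares of both lists were close among genes with no read. These shares are descriptions of the annotation, since neighbouring genes are not independent and no test was run.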

How the data were processed

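The deposited table holds counts that the authors made per Ensembl gene for 8 libraries, with Cutadapt 1.1, FastQC 0.10.0, Novoalign 2.07.11 in miRNA mode on UMD3.1 (uniquely aligned reads only) and HTSeq 0.5.3p3. 3 entries that name no gene were left out. The column headed 6S was taken as 8S from the label of 8S. RPM used the total over all genes. SNEB was compared with MNEB with edgeR 4.0.16 (quasi-likelihood, TMM) in R 4.3.3, tested on simulated data. The fit was repeated with other tools (edgeR's exact test, limma 3.58.1 with voom, DESeq2 1.42.0), other scalings (RLE, upper quartile, none, totals that omit mir-122) and filters, 2M moved to SNEB, and without each library. Permutation tests ran over all 70 assignments in numpy 2.4.6 and were checked against scipy 1.17.1 on random numbers. Intervals cover counting error only.

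Members and lists were chosen with earlier results of these data known. Named members are those above 10 RPM, the 15 highest by mean, those that pass a test, the 5 with the smallest p on each side of 0, those with a library apart from its group, and those whose groups do not overlap (the last 2 among members with a mean of at least 10 reads). Library pairs within groups differed by at least 199.8 times the chi-square of counting error, so each library counted once.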

Additional observations from a re-analysis of the deposited data

Results flagged for a closer look

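In groups of 4 libraries, a single library stood apart from the other 3 by Dixon's criterion in 10 of 64 groups examined. Of these, 7 were levels of a member. The criterion is set for about 1 in 20 (3.2) among independent normal values. Levels of members share the same libraries and often rose or fell together, so the count cannot be read against that rate. mir-2300a had 7.41 RPM in 2M and 0 RPM in the other MNEB libraries. mir-2468 had 4.29 RPM in 9S against 1.90 to 1.96 RPM in the other SNEB libraries. mir-2339 had 3.60 RPM in 4M against 0.206 to 0.701 RPM in the other MNEB libraries, and 2.11 RPM in 9S against 0.356 to 0.601 RPM in the other SNEB libraries. mir-2409, within AP2A2, an adaptor subunit of endocytosis, had 1.30 RPM in 9S against 0.445 to 0.509 RPM. mir-2299 had 0.206 RPM in 5M against 0.553 to 0.607 RPM, and mir-2344 had 0.965 RPM in 2M against 0.0650 to 0.130 RPM.

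The number of members with a read was 73 in 7S and 78 to 79 in the other SNEB libraries. mir-2284x made up 90.1% of the member reads in 5M and 97.0% to 98.3% in the other MNEB libraries. Fragments of PC, which holds mir-2408, had 7.66 RPM in 5M and 0.325 to 1.52 RPM in the other MNEB libraries. Libraries 5M and 9S are named most often here.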

How the results depend on the processing

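Members called stayed at 0 in all 16 alternatives above 10 RPM and all 19 at 10 reads. Over all miRNA genes, 1 was called in place of 0 with DESeq2 (both filters), with 2M in SNEB (above 10 RPM), with edgeR's exact test and with no filter (10 reads), and none of these was a member. The median log2 fold change of all genes was 0.01 with TMM, -0.10 with RLE, 0.11 with no scaling and 0.13 in limma voom. mir-2408 lay between 1.06 and 1.74 in all 19, with adjusted p of 0.378 to 1.00 and p under 0.05 in 15.

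With a library left out, ranges were 1.15 to 1.74 for mir-2408, -0.59 to 0.080 for mir-2284x above 10 RPM, 0.60 to 2.68 for mir-2483, -0.12 to 2.41 for mir-2344 (-0.12 without 7S), -2.44 to 0.073 for mir-2415, -1.46 to 0.091 for mir-2316, -1.38 to 0.65 for mir-2388, -1.19 to 0.14 for mir-2387 (all 4 highest without 5M), -0.89 to 0.20 for the log2 ratio of summed levels (-0.50 with all, 0.20 without 4M) and 1.43 to 2.85 for PC. mir-2388 was 0.057 in limma voom. Members in every library numbered 33, 8 at 10 or more reads, 4 at 1 RPM or more, and 33 to 41 with a library left out. The causes were not tested. At the depth of the smallest library in gene reads, mir-122 included, 31.5 members would be expected in every library.

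No paired analysis was possible because the groups share no replicate numbers.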

Other observations

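The reads of mir-2300a fell in 2M, 7S and 10S, across the groups. Of 807 genes of any kind with at least 20 reads in each of these 3 libraries, 2 had their lowest value there at more than 5 times the highest of the other libraries, which were mir-2300a and CD96, a receptor of T and natural killer cells. CD96, chosen after its values were seen, had 104, 18, 8 and 1 reads in 2M, 3M, 4M and 5M, and 104, 5, 12 and 106 reads in 7S, 8S, 9S and 10S.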
